A study of Mus musculus with 2 samples.

Results

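The members described here are carriers that bring glucose, lactate and other monocarboxylates, and amino acids across membranes. They are the array rows whose platform gene symbol starts with Slc1a, Slc2a, Slc3a, Slc7a, Slc16a, Slc36a or Slc38a, rows naming several symbols included. The rule found 68 of 65956 rows, and 64 of them name a single carrier gene. The other 4 are Slc2a4rg-ps and Slc7a6os, which only share the start of their symbols, and a pair of rows naming several symbols, Gm13872/Slc1a2 and Slc36a1os/4921508A21Rik. No carrier gene had more than 1 row to itself.

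RNA came from Vγ6 γδ T cells, which arise in the thymus around birth and are named for a chain of their receptor. The cells were stained with antibodies and sorted from thymi of 0-day-old C57BL/6 mice. The MHC class II KO group lacks the proteins that show antigen to CD4 T cells, the WT group carries them, and each group was measured on 1 array with biotin-labelled RNA, hereafter the KO array and the WT array. The labels name neither the disrupted class II gene nor any pooling of animals. The design asks how gene expression in these cells differs without MHC class II. With 1 array a group there is no replicate check, no error and no test, so every difference below describes these 2 arrays.

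A row counted as above background when its signal passed the 95th percentile of 1228 olfactory receptor rows, genes that T cells are not known to use. That limit was a log2 signal of 5.86 on the KO array and 5.94 on the WT array, and 26004 rows passed it on the KO array and 25902 on the WT array. The class II chain gene H2-Ab1 had a log2 signal of 6.67 on the KO array and 7.68 on the WT array, which checks the labels only in part, since the probes' place relative to the disrupted sequence is not known. Of the fixed Vγ6 markers, 16 of 16 with a row were above background on both arrays, among them the Vγ6 segment Tcrg-V6 at 12.33 on the KO array and 12.64 on the WT array. In that list Il17f differed by -2.88, Il17a by -1.57 and Ccr6 by 1.46.

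As background, dividing and effector T cells take up more glucose and amino acids than resting ones. Glucose enters through the SLC2 (GLUT) family. Monocarboxylates such as lactate cross through SLC16 (MCT) carriers with protons, and several of these need the chaperone basigin or embigin to reach the cell surface. SLC1A5 and the SLC38 carriers bring in glutamine and other small neutral amino acids. SLC7 light chains pair with the SLC3A2 heavy chain (CD98hc) to exchange large neutral and cationic amino acids or cystine, while SLC36 carriers and part of the SLC38 family work at the lysosome, where amino acids are sensed by the growth kinase complex mTORC1.

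None of the members was 1.5-fold apart between the arrays. Of the 68 rows, 26 were above background on at least 1 array, 25 of them on both, and 0 of these 26 were at least 1.5-fold higher or lower on the KO array. Among all 27053 rows above background, 9.34% passed that threshold, among rows with 1 gene symbol 6.51%, and among 126 other Slc rows 3.97%. The differences of the members, taken on the log2 scale as KO array minus WT array, ran from -0.30 for Slc7a5 to 0.54 for Slc16a10 over the 25 rows above background on both arrays, with 16 above 0 and 9 below. Among rows above background on both arrays, 12631 of all 24853 rows and 80 of 123 other Slc rows were above 0.

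At a lower threshold of 1.2-fold, chosen after the values were seen, 6 carriers were higher on the KO array and 2 were lower. The higher ones were Slc16a10, Slc38a2, Slc1a5, Slc16a1, Slc7a6 and Slc16a13, and the lower ones Slc7a5 and Slc16a6. In either direction, 36.3% of all rows, 30.9% of rows with 1 symbol and 32.5% of other Slc rows passed this threshold. The higher carriers make up 23.1% of the members above background, beside 18.2% of all rows and 27.8% of other Slc rows, and the lower ones 7.69%, beside 18.1% and 4.76%. Both shares lie between those of all rows and of other solute carriers. For 160 genes with at least 2 rows above background on both arrays, the differences of 2 of the gene's rows were compared. The gap between them had an SD of 0.24 and a median absolute size of 0.085. This spread within the arrays leaves out the spread between animals.

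Promoter windows from RefSeq (GRCm38.p6) are shown for a pair of carriers whose known regulators are described further on. The 250 bases before the start site of Slc16a1, the lactate carrier MCT1, hold 1 E-box, the letters CACGTG that Myc and related factors can bind, in capitals. Those before Slc7a11, the cystine carrier xCT, hold 2 matches to the amino acid response element core that ATF4 can bind, TGATGNAA or its reverse complement TTNCATCA, also in capitals.
Slc16a1, chr3:104638414-104638663, plus strand: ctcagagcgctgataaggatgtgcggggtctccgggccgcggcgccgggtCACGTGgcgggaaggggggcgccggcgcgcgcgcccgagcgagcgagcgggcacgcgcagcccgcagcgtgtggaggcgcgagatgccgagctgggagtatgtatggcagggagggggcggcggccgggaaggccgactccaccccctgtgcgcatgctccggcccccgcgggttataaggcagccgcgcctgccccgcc
Slc7a11, chr3:50443614-50443863, minus strand: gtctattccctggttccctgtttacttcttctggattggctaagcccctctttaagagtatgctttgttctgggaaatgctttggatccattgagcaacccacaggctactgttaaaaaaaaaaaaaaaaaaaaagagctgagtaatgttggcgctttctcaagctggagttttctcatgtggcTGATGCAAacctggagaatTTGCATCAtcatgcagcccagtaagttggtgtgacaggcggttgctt

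Both strands were searched, in the full windows that also hold the first bases after the start site. The E-box letters were in 7.15% of 32851 promoter windows of all genes and in 3 of 20 windows of 18 carriers above background, those of Slc16a1, Slc36a1 and Slc38a7. The response element core was in 3.97% of all windows and in 1 of the 20. None of these carriers had both motifs. A match describes these letters only, and neither promoter activity nor binding was measured.

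SLC2 carriers showed small differences in both directions. Slc2a1, the gene for GLUT1, the main glucose carrier of activated T cells, had a log2 signal of 9.99 on the KO array and 9.84 on the WT array, a difference of 0.15. Slc2a3, the gene for the high-affinity carrier GLUT3, had 8.82 on the KO array and 8.62 on the WT array, a difference of 0.20. Both genes were therefore slightly brighter on the KO array, by 1.11-fold and 1.15-fold. Slc2a8, an intracellular sugar carrier, lay close to background with 6.16 on the KO array and 5.95 on the WT array. Slc2a9, which carries urate, went the other way, at 6.27 on the KO array and 6.41 on the WT array.

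Slc2a6, the gene for the lysosomal carrier GLUT6, was above background on the WT array alone. Its log2 signal was 5.53 on the KO array and 5.94 on the WT array, where it barely passed the limit, so it is bounded at only 1.06-fold lower or more. The other 7 SLC2 carrier rows were under background on both arrays, at 4.39 to 5.03 on the KO array and 4.38 to 4.96 on the WT array (log2 signal). They include Slc2a2 and Slc2a4, the glucose carriers of liver and of insulin-sensitive muscle and fat, and Slc2a5, the fructose carrier, besides Slc2a7, Slc2a10, Slc2a12 and Slc2a13. The median difference of the 5 SLC2 carriers above background, Slc2a9 included, was 0.15. Slc2a4rg-ps, a pseudogene that is no carrier, differed by 0.20.

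**Figure D1:**
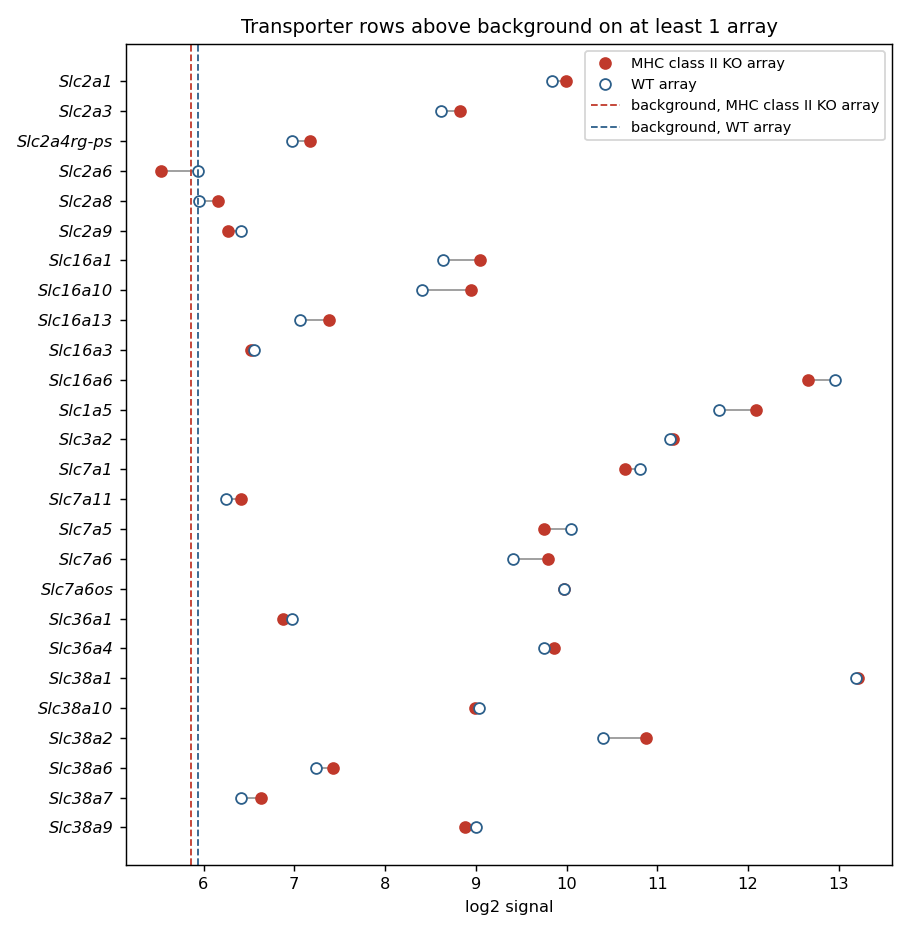
Log2 signal (x axis) of the 26 transporter rows above background on at least 1 array, 1 line per row, with the KO array as filled red points and the WT array as open blue points. Dashed lines mark the background of each array, at 5.86 and 5.94. Paired points lie close together in every row, and Slc2a6 alone has a point under its background line.

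The SLC16 family held the member with the highest difference among those above background. Slc16a10, which encodes a carrier of aromatic amino acids and thyroid hormones, had a log2 signal of 8.95 on the KO array and 8.41 on the WT array. Its difference of 0.54 is 1.45-fold, just short of the 1.5-fold threshold. Slc16a1, whose promoter is shown above, had 9.04 on the KO array and 8.64 on the WT array, a difference of 0.41 or 1.32-fold. Slc16a13, a less studied member of the family, had 7.38 on the KO array and 7.06 on the WT array, a difference of 0.33.

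The remaining SLC16 carriers above background were level or lower. Slc16a3, the gene for MCT4, the lactate exporter of highly glycolytic cells, had a log2 signal of 6.52 on the KO array and 6.56 on the WT array. Slc16a6, a ketone body carrier of the liver in zebrafish, had 12.67 on the KO array and 12.96 on the WT array. Its difference of -0.29 was the lowest in the subfamily. Across the 5 SLC16 carriers above background, Slc16a10 included, the median was 0.33. It dropped to 0.15 when the background limit was set at the 90th percentile or at the median of all rows, which admits dimmer carriers. Below background on both arrays were 8 rows, Slc16a4, Slc16a5, Slc16a7, Slc16a8, Slc16a9, Slc16a11, Slc16a12 and Slc16a14, with log2 signals of 4.02 to 5.52 on the KO array and 4.05 to 5.67 on the WT array. Slc16a11 and Slc16a13 are next to each other in the RefSeq gene order, and of this pair Slc16a13 alone was above background.

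The chaperones of the lactate carriers were measured as part of a separate list of 4 genes with a row. Bsg, the gene for basigin, had log2 signals of 13.74 on the KO array and 13.75 on the WT array. Emb, the gene for embigin, had 15.58 on the KO array and 16.05 on the WT array, a difference of -0.47. Embigin was thus lower on the array where Slc16a1 was higher. Nptn, the gene for the related neuroplastin, differed by -0.10, and Cltrn, a partner of kidney carriers, was under background on both arrays.

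Glutamine and small neutral amino acid carriers differed one by one. Slc1a5, the gene for ASCT2, through which activated T cells take up glutamine, had a log2 signal of 12.08 on the KO array and 11.68 on the WT array. That is a difference of 0.41, or 1.33-fold. Slc38a2, the gene for SNAT2, a sodium-coupled carrier that cells induce when amino acids run short, had 10.87 on the KO array and 10.40 on the WT array. With 0.47, or 1.39-fold, it had the highest difference after Slc16a10 among members above background. Slc38a1, which encodes the related glutamine carrier SNAT1, had 13.21 on the KO array and 13.19 on the WT array, a difference of 0.02.

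Slc38a1, Slc38a2 and Slc38a4 follow each other in the RefSeq gene order, and Slc38a4 was under background on both arrays, so of these neighbours Slc38a2 alone was at least 1.2-fold apart. Other rows of the excitatory and neutral amino acid family SLC1, namely Slc1a1, Slc1a2, Slc1a3, Slc1a4, Slc1a6 and Slc1a7, were under background on both arrays, at 4.29 to 4.88 on the KO array and 4.32 to 4.93 on the WT array. Most of these encode glutamate carriers of brain and other tissues. The row Gm13872/Slc1a2, which names a predicted gene as well, was also under background on both, so its measured difference of 0.57 gives no fold.

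**Figure D2:**
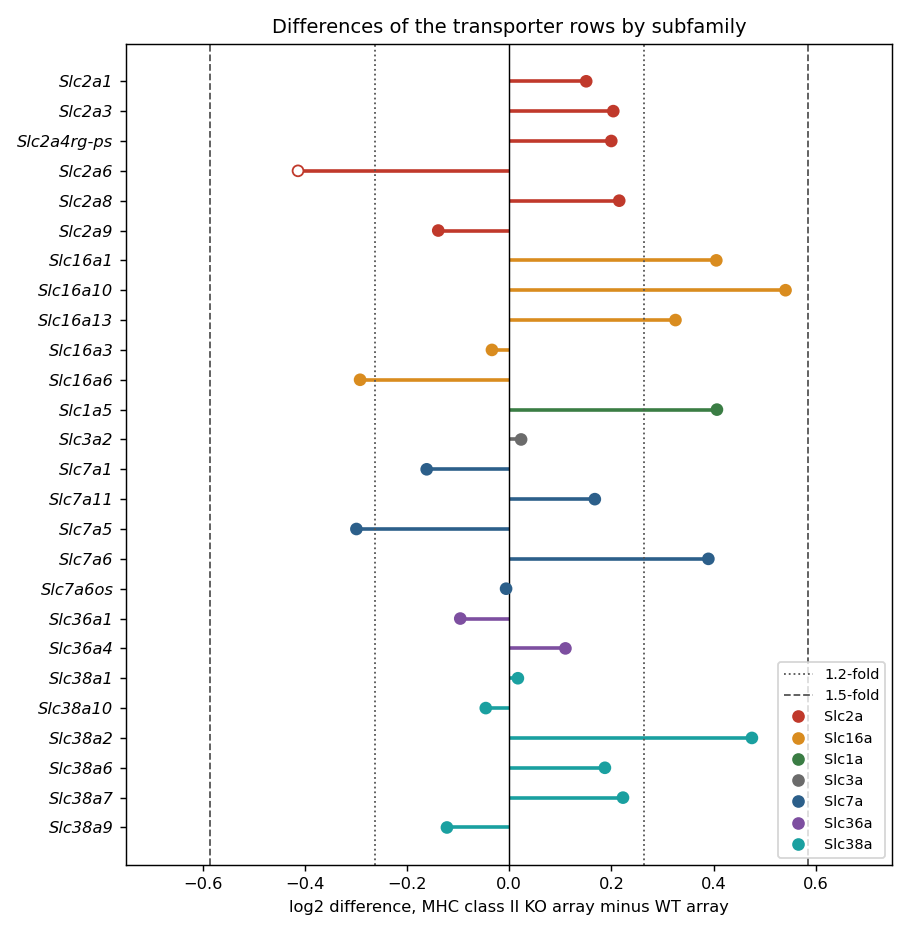
Log2 difference, KO array minus WT array (x axis), of the same 26 rows, coloured by subfamily, with dotted lines at 1.2-fold and dashed lines at 1.5-fold. The open point is Slc2a6, above background on the WT array alone. Of the other points, 6 lie past the right dotted line, 2 past the left one and none past a dashed line.

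The heavy chain gene Slc3a2 had a log2 signal of 11.17 on the KO array and 11.15 on the WT array, a difference of 0.02, while its light chain partners went in different directions. Slc7a5, the gene for LAT1, the leucine and large neutral amino acid exchanger of activated T cells, had 9.75 on the KO array and 10.05 on the WT array. Its difference of -0.30, or 1.23-fold lower, was the lowest among amino acid carriers. Slc7a6, the gene for y+LAT2, which exchanges cationic for neutral amino acids, had 9.80 on the KO array and 9.41 on the WT array, a difference of 0.39 or 1.31-fold. Slc7a6os, a separate gene named for its place on the opposite strand of Slc7a6, differed by -0.01.

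Slc7a11, whose promoter is shown above, lay near background with 6.42 on the KO array and 6.25 on the WT array. The arginine and lysine carrier gene Slc7a1, which works without a heavy chain, had 10.64 on the KO array and 10.80 on the WT array. Its difference of -0.16 is within 1.2-fold, and Slc7a2, the other arginine carrier of this kind that immune cells can use, was under background on both arrays. The median of the 4 SLC7 carriers above background was 0.0029, and its sign changed with centring and with the background limit.

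Further SLC7 rows under background on both arrays were 10 in number: Slc7a3, Slc7a4, Slc7a7, Slc7a8, Slc7a9, Slc7a10, Slc7a12, Slc7a13, Slc7a14 and Slc7a15. With Slc7a2 they had log2 signals of 4.20 to 5.65 on the KO array and 4.14 to 5.62 on the WT array. Slc3a1, the heavy chain of kidney and gut, and its partner Slc7a9 were both in this state, with Slc3a1 at 5.40 on the KO array and 5.30 on the WT array. Of the heavy and light chains, therefore, those above background were Slc3a2, Slc7a5, Slc7a6 and Slc7a11.

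The amino acid carriers Slc38a9, Slc38a7 and Slc36a1, which work at the lysosome, were within 1.2-fold. Slc38a9, which encodes the lysosomal arginine sensor of mTORC1, had a log2 signal of 8.88 on the KO array and 8.998 on the WT array. Slc38a7, the gene for a lysosomal glutamine exporter, had 6.64 on the KO array and 6.41 on the WT array, a difference of 0.22. Slc36a1, the gene for the proton-coupled lysosomal carrier PAT1, had 6.88 on the KO array and 6.97 on the WT array. These 3 carriers thus differed in both directions and by less than 1.2-fold.

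Slc36a4, a proton-independent carrier of proline and tryptophan, had 9.86 on the KO array and 9.75 on the WT array. Slc38a10 had 8.99 on the KO array and 9.04 on the WT array, and Slc38a6 had 7.43 on the KO array and 7.24 on the WT array. The median of the 6 SLC38 carriers above background was 0.10, and that of the 2 SLC36 carriers was 0.0070, turning to -0.0042 under the loess correction. Slc38a3, Slc38a4, Slc38a5, Slc38a8 and Slc38a11 were under background on both arrays, as were Slc36a2 and Slc36a3, the neighbours of Slc36a1, and the row Slc36a1os/4921508A21Rik.

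By family, the 14 carriers of SLC1, SLC3, SLC7, SLC36 and SLC38 above background had a median of 0.07, and the 10 of SLC2 and SLC16 one of 0.18, Slc16a10 and Slc2a9 counted with the SLC2 and SLC16 group whatever they carry. The median of all 24 carriers above background was 0.13, beside 0.11 for the 126 other Slc rows, 0.04 for rows with 1 symbol and 0.01 for all rows. Members that passed the filter are those bright enough to measure, and with no filter the median of all 64 carriers was -0.039, beside -0.040 for all rows. The share of members above background, 38.2%, was near the 41.0% of all rows. On the scale of single rows, the median absolute difference was 0.19 for the members, 0.18 for other Slc rows and 0.20 for all rows.

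**Figure D3:**
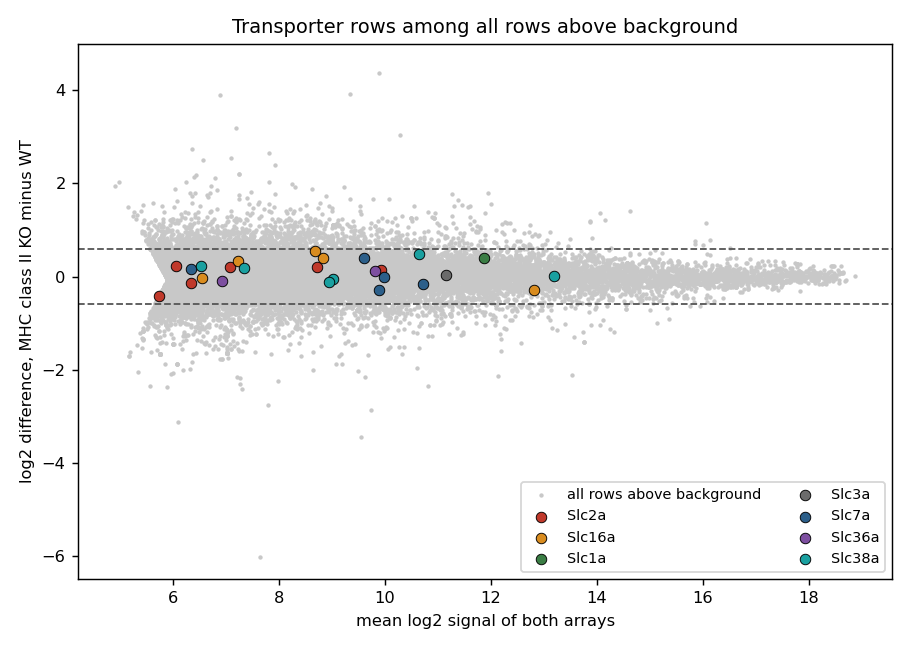
Log2 difference, MHC class II KO minus WT (y axis), against the mean log2 signal of both arrays (x axis) for all 27053 rows above background in grey and the 26 transporter rows in the colours of their subfamilies. Dashed lines mark 1.5-fold. All coloured points lie between the dashed lines, as do most grey points. Of all rows above background, 9.34% were called at least 1.5-fold apart.

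Genes that control glucose uptake and its first steps differed mostly by little. Of 17 of 19 genes above background, 2 were lower by 1.5-fold or more and 0 were higher, beside 4.66% and 4.68% of all rows, and the median was 0.11. Arrdc3, an arrestin-like gene related to Txnip, had a log2 signal of 9.02 on the KO array and 9.85 on the WT array, a difference of -0.83. Hif1a, the gene for the hypoxia factor that induces GLUT1 and MCT4, had 11.20 on the KO array and 11.89 on the WT array, a difference of -0.69. Txnip, which promotes removal of GLUT1 from the surface, was level at 14.99 on the KO array and 15.00 on the WT array.

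Myc, a factor that induces glucose and glutamine carriers in activated T cells, had 10.14 on the KO array and 9.73 on the WT array, a difference of 0.41. Aspscr1, the gene for a tether of glucose carriers inside the cell, differed by 0.37. The hexokinase genes Hk1 and Hk2, whose products trap glucose in the cell, differed by 0.32 and -0.07, and the lactate dehydrogenase gene Ldha by 0.00. Hif1a and Myc, both with carriers among their known targets, thus lay on opposite sides of 0.

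The amino acid sensing machinery of mTORC1 had a median of 0.21 over 31 of 33 genes above background. Of these, 2 (6.45%) were at least 1.5-fold higher and 0 lower, a share near the 4.68% of all rows. At 1.2-fold, 12 (38.7%) were higher and 1 was lower, beside 18.2% and 18.1% of all rows. Sesn3, the gene for a stress-induced inhibitor of mTORC1, had a log2 signal of 13.32 on the KO array and 12.45 on the WT array, a difference of 0.87. Nprl2, a subunit of the GATOR1 complex that also restrains mTORC1, had 10.20 on the KO array and 9.42 on the WT array, a difference of 0.78. Tsc2 and Tbc1d7, subunit genes of the inhibitory TSC complex, differed by 0.58 and 0.51. These inhibitors were named for having the highest differences of the list. In that list 24 genes were above 0 and 6 below, beside 13735 and 13184 of all 27053 rows above background. Mtor, the kinase gene itself, differed by 0.24, and Sesn1, a relative of Sesn3, by -0.19. Whether inhibitors differed from the other genes of the list was not tested.

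The response to amino acid shortage had a median of 0.04 over 16 of 20 genes above background. Of these 16, 0 were at least 1.5-fold higher or lower, beside 9.34% of all rows. Atf4, which encodes its main transcription factor, had a log2 signal of 9.86 on the KO array and 9.77 on the WT array. Asns, the asparagine synthetase gene, differed by 0.14, Sars, a seryl-tRNA synthetase gene, by 0.36, and the folate and proline synthesis genes Mthfd2 and Aldh18a1 by 0.31 and 0.30. Eif2ak4, the gene for the shortage sensor GCN2, differed by -0.22. Among carriers that ATF4 is known to induce, Slc38a2 and Slc7a11 differed by 0.47 and 0.17, Slc3a2 by 0.02, Slc7a1 by -0.16 and Slc7a5 by -0.30.

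Other nutrient carriers of a fixed list lay above background in 12 of 28 cases, with a median of 0.17. Of these 12, 1 (8.33%) was at least 1.5-fold higher, beside 4.68% of all rows. It was Slc17a9, which loads nucleotides into vesicles, at a log2 signal of 8.31 on the KO array and 7.65 on the WT array. The lysosomal peptide and histidine carrier gene Slc15a4 differed by 0.32. Slc66a1, which exports cationic amino acids from lysosomes, differed by 0.26. Slc43a1, a carrier of large neutral amino acids like LAT1, differed by -0.26.

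**Figure D4:**
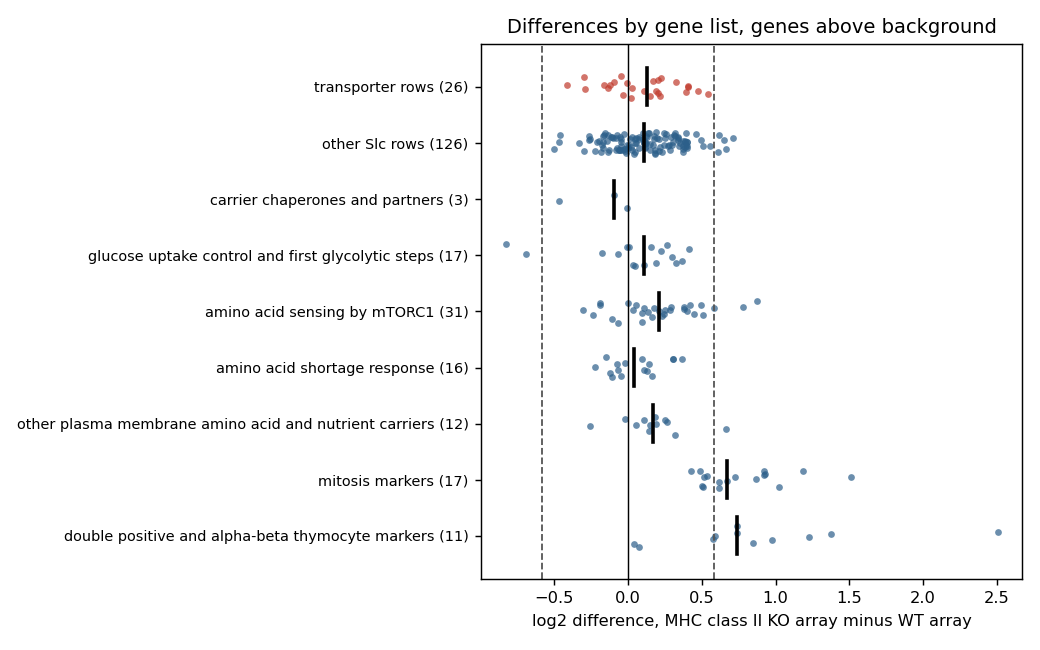
Log2 difference, KO array minus WT array (x axis), of the transporter rows in red and of other gene lists in blue, with the number above background in brackets and measured differences drawn also for genes above background on 1 array, black bars at the medians and dashed lines at 1.5-fold. The transporter median of 0.13 is near that of other Slc rows, 0.11, while the mitosis and thymocyte markers have medians of 0.67 and 0.74.

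Markers of dividing cells and of other thymocytes were higher on the KO array in the same comparison. Of 17 mitosis markers with a row, 17 were above background and had differences above 0, beside 13735 of all 27053 rows above background. The markers had a median of 0.67, and Cdc20 differed by 1.51. Of the 17, 11 (64.7%) were at least 1.5-fold higher, beside 4.68% of all rows. The summed signal of the mitosis markers was 17.14 on the log2 scale on the KO array and 16.53 on the WT array. Of 12 thymocyte markers with a row, for double positive and αβ cells, 11 were above background (median 0.74). Of these, 7 (63.6%) were at least 1.5-fold higher, beside 4.68% of all rows. Among those above background on both arrays, Cd8b1 had the highest difference, 1.38. The summed signal of the thymocyte markers was 15.11 on the log2 scale on the KO array and 13.94 on the WT array. Most of it came from Cd8b1, with 14.75 on the KO array and 13.38 on the WT array. The defining genes Dntt and Ptcra passed background on the KO array alone, and Rag2 on neither. Dntt is therefore bounded at 3.68-fold higher or more, and Ptcra at 1.41-fold higher or more. In sorted cells a different share of another cell type and a different RNA level per cell cannot be told apart, and the part of these cells in the values of Slc16a10, Slc38a2, Slc1a5, Slc16a1, Slc7a6 and Slc16a13 was not tested.

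Markers of other cells were mostly under background. Above it were 4 of 13 thymic epithelial markers, 5 of 17 of dendritic cells, macrophages and B cells, 2 of 9 of red blood cells and platelets, and 3 of 12 of endothelial and mesenchymal cells. Their medians were -0.09, 0.30, -0.29 and 0.05, with genes above background on 1 array held to their bounds. In the first list Krt8 was at least 1.18-fold lower, with a signal under background on the KO array. In the list of dendritic cells, macrophages and B cells, Irf8 and Cd68 had log2 differences of 1.11 and 0.91. These 2 of 5 genes (40%) were at least 1.5-fold higher, beside 4.68% of all rows. In the remaining lists the most different genes were Gp9 and Sparc, with log2 differences of -0.36 and -0.14.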

How the data were processed

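Per the labels' protocols, TRIzol extraction and a column clean-up gave total RNA, which was amplified and biotin-labelled with a whole-transcript GeneChip kit. RMA and Affymetrix Expression Console 1.4.1 are named per the submitters' processing notes, while RMA settings and genome build are not given there. The authors' deposited table holds intensities on a linear scale. On the MHC class II KO array 742 rows and on the WT array 767 pass 65535, the ceiling of a 16-bit scanner, so an unstated step may have widened or narrowed every fold. The brightest member signal was 9461. The log2 of each deposited intensity was taken (Python 3.11.15, pandas 2.3.3, numpy 2.4.6), and calls held rows above background on 1 array to their bound.

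Names came from the platform annotation, which can be old, with 30604 rows naming 1 symbol, 2146 several and 33206 none. Gene identifiers matched 22928 rows to RefSeq (GRCm38.p6), and no member symbol changed. For lists, the brightest row of a symbol was used. Every member above background is named, with up to 4 genes of each list and 10 genes chosen whatever their values. Outside this rule stand H2-Ab1, Tcrg-V6, Cltrn, Ptcra, Rag2, Mtor and Sesn1, named to check the samples or complete a list. Members and lists were chosen with earlier results of these data known. The steps were tested on simulated data. The number of arrays limits the precision, and no test was possible. Alternatives were other background limits and filters, 3 other scalings, floors, thresholds and row choices.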

Additional observations from a re-analysis of the deposited data

How the results depend on the processing

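Whether the carriers differ between animals cannot be read from 1 array a group, and dim rows have only bounds. Members at least 1.5-fold apart numbered 0 under every background limit, filter and scaling run, while a lower threshold planned beside it gave 6 higher. The 1.2-fold threshold, added after the data were seen, gave 6 to 8 higher and 2 to 3 lower members over the same settings. With the main settings the higher share was 23.1%, beside 18.2% of all rows. The count of 8 came with no filter, which admits rows under background: 8 of 68 members, beside 7961 of all 65956 rows. Members above background numbered 19 with the 99th percentile and 34 with the median of all rows as the limit. The medians of subfamilies depended on which dim rows entered. The SLC16 median was 0.15 with the 90th percentile or the median of all rows. The SLC7 median was -0.16 with the 99th percentile, -0.083 with the median of all rows and -0.0037 when centred. The SLC36 median was 0.11 with the 99th percentile and -0.0042 after loess (fraction 0.3). With no filter the medians were -0.045 for SLC2, -0.034 for SLC16, -0.040 for SLC1, -0.083 for SLC7, -0.056 for SLC36 and -0.039 for all carriers. Of 182 recomputed member differences, 0 changed sign and 1 moved by more than 0.1, that of Slc2a6, which was -0.080 with values raised to background. No paired analysis was possible because each group has 1 array.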
